A study of Mus musculus with 6 samples.

Results

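Transcripts of the proteasome, the protease complex that degrades ubiquitin-tagged proteins, were followed in liver endothelial cells of mice with and without dietary iron loading. The members are the genes of the deposited table whose symbol is Psm, a letter from a to g and a number, without the immunoproteasome genes Psmb8, Psmb9 and Psmb10 and without pseudogenes. There were 45 of them among 39179 genes: 16 of the core (8 Psma, 8 Psmb), 20 of the cap (6 Psmc, 14 Psmd) and 9 activators, inhibitors and assembly chaperones (4 Psme, 1 Psmf, 4 Psmg). Of the 45, 44 passed the filter on low values and were tested. Psmb11, the catalytic subunit of the thymus, had 0 reads in each of the 6 libraries, which allows up to 0.139 to 0.231 CPM at 3 reads per library (counting error only).

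Wild-type male mice of the inbred strain 129S6/SvEvTac were put on a purified diet at 3 weeks of age and their cells were sorted at 7 weeks, after 4 weeks on it. Iron was at 37 ppm (as ferric citrate) in the diet of the control_iron group and at 10000 ppm (as carbonyl iron) in that of the high_iron group; no other allele or agent is named, and each group had 3 biological replicates, of which the labels do not say whether each was 1 mouse or a pool. Endothelial cells were sorted as CD31+ and CD146+, and CD45-, lineage-, MHCII- and CD64-. The comparison asks which transcripts of these cells differ under iron load.

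In the proteasome, rings of alpha subunits (Psma genes) cover rings of beta subunits (Psmb genes), of which Psmb5, Psmb6 and Psmb7 encode the ones that cut peptide bonds. The cap unfolds and feeds substrates: Psmc genes encode its ATPases, and Psmd genes its scaffold, ubiquitin receptors and deubiquitinase, together with chaperones that assemble it. Other activators, encoded by Psme genes, can take the place of the cap. When proteasome activity falls short, mammalian cells raise most subunit genes together through the transcription factor NFE2L1 (also called NRF1), and its relative NFE2L2 (NRF2) has been linked to some of them under oxidative stress. Both factors bind antioxidant response elements, with a core of TGACNNNGC, as heterodimers with small MAF proteins.

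That core was therefore sought on both strands of the promoters, 250 bases before to 50 after the start, in RefSeq's table for GRCm38. Of the 45 members 37 matched the table by symbol, with 40 promoters, and 6 of these 40 (15%) held the core, against 12.4% of all 32851 promoters in the table. The 6 sequences are printed because they are the members in which this element could be looked at beside the expression values; Gclm and Srxn1, target genes of NFE2L2 that rose in these cells, follow as examples from another list. Capitals mark the core, read on the gene's strand or as its reverse complement.
Psmb5: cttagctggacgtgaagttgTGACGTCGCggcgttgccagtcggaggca
Psmb6: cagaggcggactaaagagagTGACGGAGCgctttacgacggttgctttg
Psmc6: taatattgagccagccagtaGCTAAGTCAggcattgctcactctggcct
Psmd9: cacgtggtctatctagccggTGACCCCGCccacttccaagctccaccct
Psmd12: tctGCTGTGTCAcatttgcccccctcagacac
Psme4: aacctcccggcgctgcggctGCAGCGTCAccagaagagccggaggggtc
Gclm: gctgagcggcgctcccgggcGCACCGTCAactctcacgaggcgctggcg
Srxn1: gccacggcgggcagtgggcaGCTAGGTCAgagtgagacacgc
The stretches lie at chr14:54618014-54618062 (Psmb5, minus strand), chr11:70525328-70525376 (Psmb6, plus), chr14:45329577-45329625 (Psmc6, plus), chr5:123228139-123228187 (Psmd9, plus), chr11:107479278-107479309 (Psmd12, plus) and chr11:30771748-30771796 (Psme4, plus), with Gclm at chr3:122245403-122245451 (plus) and Srxn1 at chr2:152105532-152105573 (plus). A match is a description of the letters and not evidence of a bound site.

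A site of the ETS family of transcription factors, CCGGAAGT on either strand, was in 10 of the 40 member promoters (25%), in 9 genes of the core, cap, activators and chaperones against 3.89% of all promoters in the table. The CCAAT box was in 13 (32.5%) against 37.4%. The ETS sequences of 5 genes, the first by name in each family that had one, are given as examples; 28 of the 37 matched genes lacked the site in this window, and capitals mark it.
Psma6: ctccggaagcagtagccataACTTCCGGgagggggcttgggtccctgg
Psmc1: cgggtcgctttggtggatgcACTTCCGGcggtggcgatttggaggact
Psmd12: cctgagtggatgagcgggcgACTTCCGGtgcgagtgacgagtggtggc
Psme3: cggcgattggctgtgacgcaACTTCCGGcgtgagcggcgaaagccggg
Psmg3: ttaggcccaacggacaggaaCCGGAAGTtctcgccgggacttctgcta
They lie at chr12:55398821-55398868 (Psma6, plus strand), chr12:100110153-100110200 (Psmc1, plus), chr11:107479490-107479537 (Psmd12, plus), chr11:101316194-101316241 (Psme3, plus) and chr5:139826863-139826910 (Psmg3, minus).

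Libraries held 12963510 to 21663543 reads in genes. Endothelial markers summed to 17460 to 19378 CPM (reads of a gene relative to a scaled library size) in control_iron and 16697 to 17846 CPM in high_iron libraries; 8 of the 10 had a negative log2 fold change (median -0.19), limma and edgeR called 0, 2 had an unadjusted p under 0.05 (Mcam, which encodes the sorting marker CD146, lower and Lyve1 higher), and DESeq2 called 1. Markers of other cells were present: 16 macrophage genes summed to 80.1 to 185 CPM in control_iron and 272 to 548 CPM in high_iron libraries, all 15 tested ones had a positive log2 fold change (median 1.40) and an unadjusted p under 0.05, limma called 3 (Csf1r, Clec4f and Marco), edgeR 2 and DESeq2 11, and none was at 0 in any library. Hepatocyte genes summed to 195 to 793 CPM in control_iron and 473 to 822 CPM in high_iron libraries. All 9 tested ones had a positive log2 fold change (median 0.56), and 2 had an unadjusted p under 0.05 (limma). For them limma and edgeR called 0 and DESeq2 called 2. Stellate cell genes summed to 131 to 1007 and 214 to 927 CPM, with 4 of the 7 tested ones positive (median 0.10) and 0 called by any of the 3 methods. These cells have proteasomes too, and the part of their RNA in the values below was not tested. In bulk RNA, fewer cells of a type and less RNA per cell cannot be told apart.

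The tested proteasome genes were expressed in the sorted samples of both groups, at levels that differed more between subunits than between diets. Per gene length (RPKM), the mean over the 6 libraries ran from 3.77 for Psma8 to 119 for Psmb2. Psmb1 and Psmb2, beta subunits without a catalytic site, had the highest levels, 125.5 ± 23.4 and 132 ± 32.3 RPKM in control_iron and 110 ± 6.27 and 107 ± 13.4 RPKM in high_iron libraries (SD, n = 3). The ranges of this pair overlap in both groups, so their order is not set by these data. The place of Psmb1 also depends on the length used: on the merged annotated exons (4595 bases against the deposited 1030, an alternative chosen after seeing the data), its mean level was 26.4 and that of Psmb2 135, still the highest. Psma8, which is known from the testis as a stand-in for Psma7, and Psmf1, the proteasome inhibitor PI31, had the lowest RPKM; on merged exons Psma8 stayed lowest and Psmd9 came next.

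The 3 catalytic genes were not at equal levels. Psmb6, with caspase-like activity, was at 68.6 ± 7.60 RPKM in control_iron and 64.4 ± 3.53 in high_iron libraries, Psmb7, with trypsin-like activity, at 30.8 ± 7.46 and 28.1 ± 2.45, and Psmb5, with chymotrypsin-like activity, at 14.7 ± 2.60 and 14.2 ± 0.832 RPKM (SD, n = 3). These ranges did not overlap in either group, but the order of Psmb7 and Psmb5 rests on the deposited length. On merged exons, 3421 bases for Psmb7 against 1206 deposited and 899 for Psmb5 against 868, the levels were 10.9 ± 2.63 and 9.89 ± 0.865 for Psmb7 and 14.2 ± 2.51 and 13.7 ± 0.803 for Psmb5 (SD, n = 3), with means in the reverse order and ranges that overlap in control_iron, while Psmb6 was the highest of the 3 on either length. A processed pseudogene matches 88.4% of the Psmb5 transcript at 95% identity or more and was not analysed here, so the count of Psmb5 is uncertain. Other genes also overlap the merged exons, Mir686 12.1% of Psmb5 on the same strand and Nek6 11.8% of Psmb7 on the opposite strand. The libraries do not mark strand, and the effect on these counts was not tested. The interferon-inducible counterparts Psmb9, Psmb10 and Psmb8, which replace Psmb6, Psmb7 and Psmb5 in the immunoproteasome, had mean levels of 11.2, 84.1 and 29.1 RPKM over the 6 libraries.

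Among the ATPases of the cap (Psmc), the highest level was 2.40 times the lowest, and among the beta subunits (Psmb) 8.25 times. For the 7 alpha subunits without Psma8 the ratio was 12.1, between Psma6 at 96.9 and Psma3 at 8.0 RPKM. In Psmd it was 13.9, between Psmd7, which pairs with the deubiquitinase Psmd14, and Psmd9, an assembly chaperone. On merged exons the ratios were 3.46 (Psmc), 13.0 (Psmb), 12.0 (Psma without Psma8) and 15.6 (Psmd). The merged exons were over 1.5 times the deposited length for 9 of the 44 tested members, so levels compared between genes hold for the deposited lengths. The log2 fold changes between diets come from CPM, which is not divided by length, so the choice of length does not alter them.

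**Figure D1:**
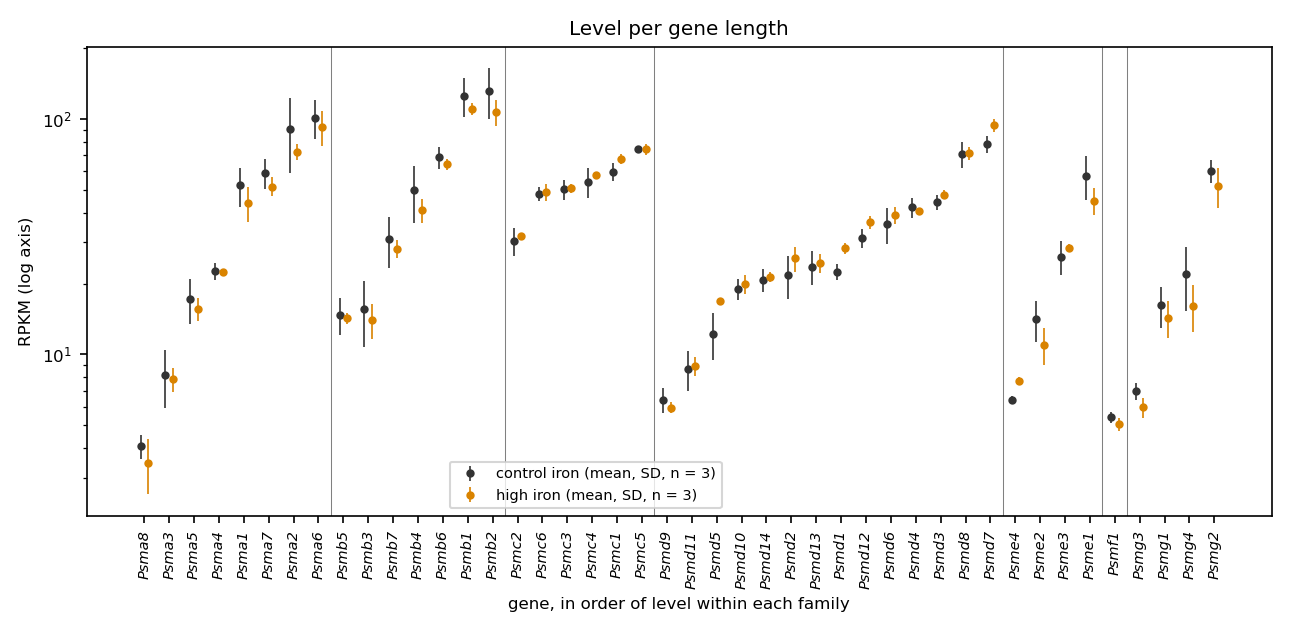
Level of each tested member per gene length, as RPKM on a log axis, with genes ordered by level within each family; points are group means and bars the SD of 3 libraries. Control (dark) and high iron (orange) points lie close together for each gene. With Psma8 left out of Psma, which it widens further, genes within a family spread up to 13.9-fold (Psmd).

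No proteasome gene passed the test between diets. Of the 44 tested members 0 were called by limma at an adjusted p under 0.05 (Benjamini-Hochberg over 12980 genes), where 1.02% of all genes tested were; edgeR and DESeq2 on the recovered reads also called 0, beside 0.863% and 3.27% of all genes. At an unadjusted p under 0.05 there were 2, Psmd1 and Psmd5, which is 4.55% of the members against 12.1% of all genes. Without control_iron replicate 1 there were 11 of the 44, 8 lower and 3 higher, and none passed the adjustment. Over all 12980 genes that fit gave 2682 (20.7%), 1243 lower and 1439 higher. With all libraries in, the smallest adjusted p of a member was 0.33 (limma). The median log2 fold change of the members was -0.03, beside -0.003 over all genes tested, and folds are on the log2(CPM + 1) scale.

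A missed threshold does not show that levels are equal, so the 95% intervals of the differences are given as well. They lay inside a 2-fold change in either direction for all 44 members, against 80.8% of all genes tested, and inside a 1.5-fold change for 29 of the 44, against 38.1% of genes. These shares were not matched for level: the lowest mean of a tested member was 6.36 CPM, while the filter let in genes from 1 CPM. The widest bounds were a factor of 0.503 (Psmg4) and of 1.83 (Psmd5). The bound of Psmg4 is that of the main fit, where its log2 fold change was -0.39. It was -0.42 on log2(CPM + 0.1), -0.47 by edgeR and -0.65 without control_iron replicate 1, and the intervals of those fits are not given here. For the catalytic genes the interval of the high_iron to control_iron ratio was 0.72 to 1.33 for Psmb5, 0.77 to 1.15 for Psmb6 and 0.69 to 1.24 for Psmb7.

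**Figure D2:**
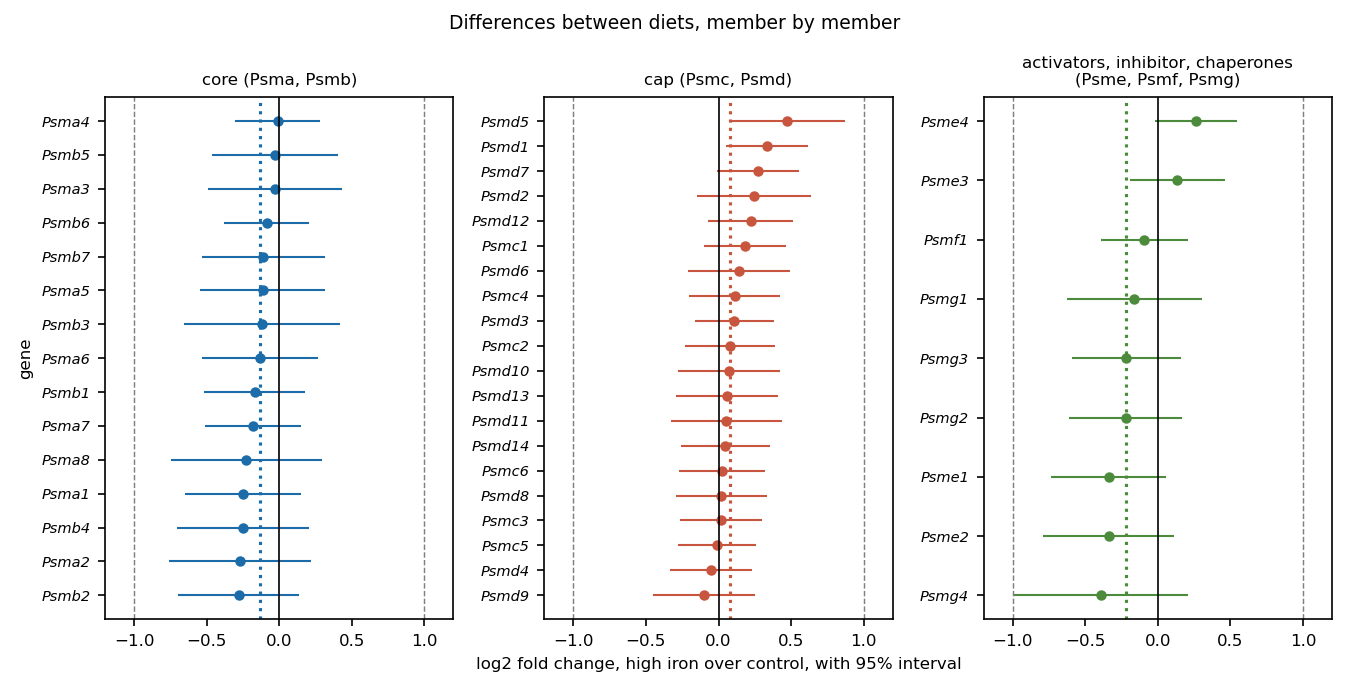
Log2 fold change of each tested member, high iron over control, as points with 95% intervals from limma; dotted lines are group medians (-0.13 core, 0.08 cap, -0.22 activators, inhibitor and chaperones) and dashed lines a 2-fold change. Every interval stays between the dashed lines, and all but those of Psmd1 and Psmd5 cross 0.

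Core genes had slightly lower mean log values on the high-iron diet, all 15 of them, and none passed. Each tested core gene had a negative log2 fold change, as did 50.5% of all genes tested and 54 of 67 genes of cytosolic ribosomal proteins. The core ran from -0.01 for Psma4 to -0.28 for Psmb2, with a median of -0.13. Values per library are given in the order of replicates 1 to 3, control_iron first. Psmb5 was at 10.2, 14.4 and 13.6 CPM against 13.2, 12.0 and 11.9 CPM. The high_iron values sit inside the control range, and the log2 fold change was -0.03 ± 0.19 (SE; adjusted p = 0.96). Psmb6 was at 119.5, 149 and 138 CPM against 126, 121 and 135 CPM, and Psmb7 at 29.1, 35.6 and 46.9 CPM against 37.3, 32.1 and 32.2 CPM. In both genes the groups overlap, with log2 fold changes of -0.09 ± 0.13 and -0.11 ± 0.19 (SE; adjusted p = 0.81 and 0.83, limma).

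The core genes with the largest differences were highest in control_iron replicate 3. Psmb2 was at 137, 177 and 225 CPM against 163, 126 and 148 CPM, a log2 fold change of -0.28 ± 0.19 (SE; adjusted p = 0.57, limma). Psma2, an alpha subunit, was at 62.9, 73.3 and 119 CPM against 65.8, 64.0 and 74.2 CPM (-0.27 ± 0.22, adjusted p = 0.63, limma). Without that library the log2 fold changes were -0.10 and -0.0009. Psma4, at the other end, was even across libraries, at 53.4, 60.9 and 52.7 CPM against 56.7, 53.9 and 54.9 CPM. A processed pseudogene that shares 66.9% of its transcript had a mean of 19.2 CPM of its own.

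Psma8 had at least 74 reads in every library, at 6.55, 7.80 and 6.32 CPM against 7.44, 4.36 and 5.69 CPM. The groups overlap (log2 fold change -0.23 ± 0.23, SE; adjusted p = 0.71, limma). No transcript of another gene matched 50% or more of it at 95% identity, Psma7 included.

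Cap genes leaned the other way, again without a call. Of 20 members 17 had a positive log2 fold change (49.5% of all genes tested did), with a median of 0.08 and a range from -0.10 (Psmd9) to 0.47 (Psmd5). Psmd5, a chaperone of cap assembly on chromosome 2 (34849734 to 34874968, minus strand, 10 merged exons), was at 59.1, 55.5 and 37.8 CPM in control_iron and at 68.7, 68.6 and 71.7 CPM in high_iron libraries. Each high_iron library was above each control library, and the log2 fold change was 0.47 ± 0.18 (SE; unadjusted p = 0.024, adjusted p = 0.33, limma). Without control_iron replicate 3, its lowest library, it was 0.28. The other cap chaperones, Psmd9 and Psmd10, had log2 fold changes of -0.10 ± 0.16 and 0.07 ± 0.16.

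Psmd1, chosen for its value along with Psmd7 and Psmd12, is a scaffold subunit that docks the ubiquitin receptor Adrm1. It was at 112, 108 and 96.0 CPM in control_iron and at 127, 132 and 140.1 CPM in high_iron libraries, with no overlap (log2 fold change 0.33 ± 0.12, SE; adjusted p = 0.33, limma; 0.27 without control_iron replicate 3). Psmd7 was at 113, 132 and 128 CPM against 141, 149 and 159.7 CPM (0.27 ± 0.13, adjusted p = 0.43, limma), and Psmd12, a lid subunit, at 86.9, 95.7 and 79.2 CPM against 109, 96.7 and 99.3 CPM (0.22 ± 0.13, adjusted p = 0.52, limma). These are the 4 cap genes whose groups did not overlap. Over the 44 members 6 had groups without overlap (13.6%), 5 higher and 1 lower, against 17.9% of all genes tested (9.46% higher, 8.44% lower). Both directions together gave a share no larger than that of all genes.

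The ATPases stayed close to even. Psmc1 had the largest log2 fold change of the 6, 0.18 ± 0.13 (SE), at 98.4, 89.2 and 82.7 CPM in control_iron and at 101, 108 and 97.9 CPM in high_iron libraries. Psmc5 had the smallest, -0.01 ± 0.12, at 106, 101 and 103 CPM against 96.4, 104 and 108 CPM. All 6 intervals lay inside a 1.5-fold change. Reads of Psmd2, the other large scaffold gene, are uncertain, since a transcribed pseudogene matches 98.2% of its transcript and had 16.1 CPM on average.

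The activators had differences of both signs, and none passed. Psme4, which encodes PA200, a nuclear activator known for degrading acetylated histones, was at 53.2, 51.7 and 55.7 CPM in control_iron and at 66.9, 63.9 and 62.6 CPM in high_iron libraries. The groups did not overlap, and the log2 fold change was 0.26 ± 0.13 (SE; adjusted p = 0.44, limma) and stayed between 0.24 and 0.29 with any 1 library left out. Psme1 and Psme2, the interferon-inducible PA28 subunits that assist antigen processing, had log2 fold changes of -0.34 ± 0.18 and -0.34 ± 0.20 (SE; adjusted p = 0.48 and 0.52, limma). Psme1 was at 82.8, 103 and 127 CPM against 93.9, 72.8 and 78.3 CPM, and Psme2 at 21.1, 26.6 and 31.7 CPM against 24.9, 17.8 and 19.2 CPM. Both overlapped between groups, and both were highest in control_iron replicate 3, without which the log2 fold changes were -0.19 and -0.20. Psme2b, a near copy that matches 82.5% of the Psme2 transcript, had 53.5 CPM on average, so reads may be split between the pair. Psme3, the nuclear PA28 subunit, was at 66.3, 90.3 and 72.4 CPM against 83.7, 85.9 and 80.0 CPM (0.13 ± 0.15, SE).

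The inhibitor and the chaperones of core assembly had lower mean log values on the high-iron diet and did not pass. Psmf1 was at 50.9, 50.2 and 45.9 CPM in control_iron and at 49.1, 43.3 and 45.2 CPM in high_iron libraries (log2 fold change -0.09 ± 0.13, SE; adjusted p = 0.80, limma). The 4 Psmg genes, which pair alpha subunits into rings, all had negative log2 fold changes, from -0.16 ± 0.21 (Psmg1) to -0.39 ± 0.27 (Psmg4). Psmg4 was at 7.90, 13.7 and 14.8 CPM against 10.3, 6.60 and 9.69 CPM, with overlap. Psmg3 was the member whose high_iron libraries all lay below the controls, at 19.9, 19.3 and 22.6 CPM against 19.1, 15.7 and 17.9 CPM (-0.22 ± 0.17, SE; adjusted p = 0.62, limma). All 4 Psmg genes were lowest in high_iron replicate 2.

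**Figure D3:**
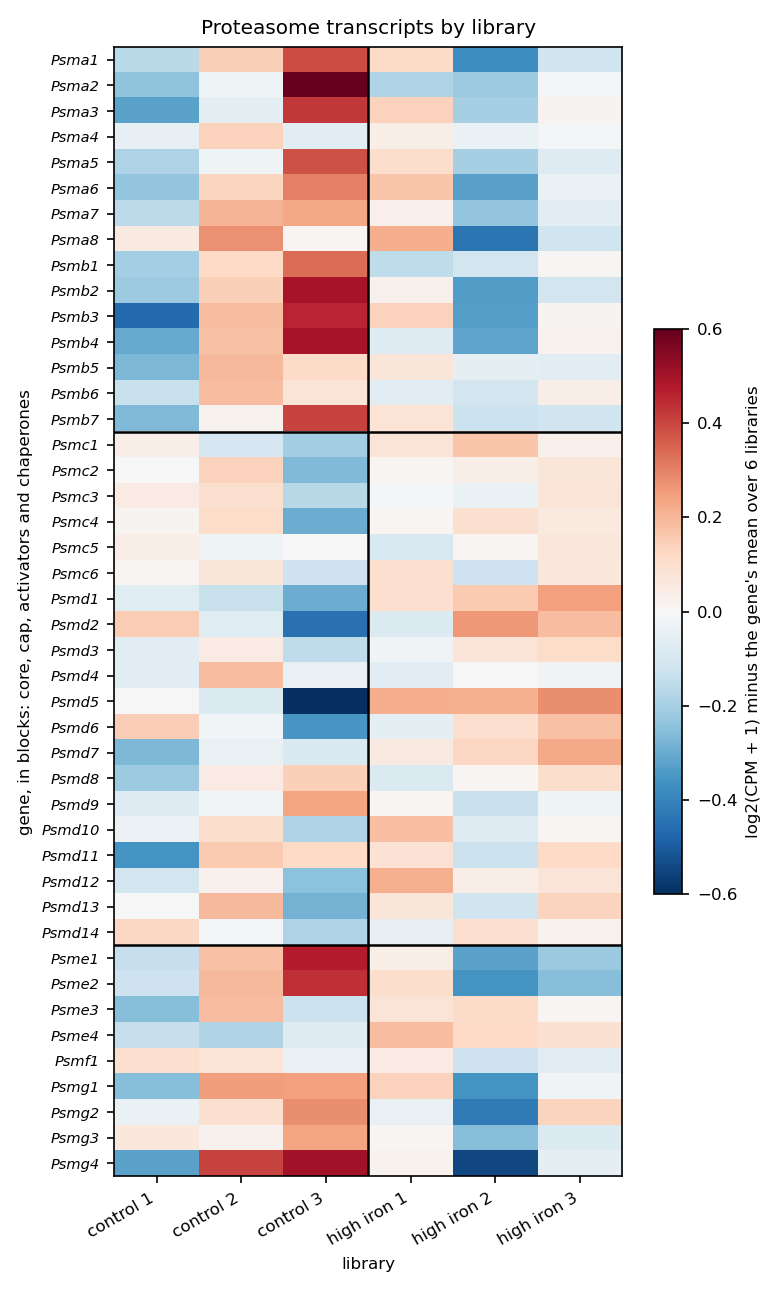
Each tested member (rows, in blocks of core, cap, and activators with inhibitor and chaperones) in each library (columns), coloured by log2(CPM + 1) minus the gene's mean over the 6 libraries. Control replicate 3 is the highest library for 11 of 15 core genes and the lowest for 14 of 20 cap genes.

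The opposite lean of core and cap was smaller without control_iron replicate 3, which was the highest library for 11 of the 15 core genes and the lowest for 14 of the 20 cap genes. Summed over genes, the core-to-cap ratio of RPKM was 0.829, 1.00 and 1.35 against 0.926, 0.769 and 0.849. Of the 3 high_iron ratios, 2 lie within the control range and 1 lies under it. Without control_iron replicate 3 the medians were -0.04 for the core and 0.002 for the cap, with 10 of 15 core genes negative and 10 of 20 cap genes positive; for activators, inhibitor and chaperones the median was -0.14, with 7 of 9 negative as before. Other libraries mattered as well: without control_iron replicate 1 the medians were -0.28 (core), 0.10 (cap) and -0.30 (the rest), and without high_iron replicate 2 they were -0.07, 0.11 and -0.07. Control libraries were more spread than high_iron libraries for 38 of the 44 members (86.4%), against 67.9% of all genes tested.

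Gene length moved with the same libraries. Among all genes tested, the shortest of 5 length classes (up to 1837 bases) had a median deviation from each gene's mean of 0.17 in control_iron replicate 3 and 0.10 in replicate 2, and of -0.13 in control_iron replicate 1 and -0.14 in high_iron replicate 2, on the log2 scale. The median deposited length was 1495 bases for the tested core genes and 2831 bases for the cap, and on merged exons it was 2370 and 2938.5 bases. The 67 tested genes of cytosolic ribosomal proteins, with a median length of 1412 bases, had a median log2 fold change of -0.16, beside -0.13 for the core. Their median deviations were -0.33, 0.09 and 0.47 against -0.006, -0.24 and 0.05. Those of the core were -0.22, 0.14 and 0.38 against 0.07, -0.22 and -0.04. In both sets control_iron replicates 3 and 2 were highest, and control_iron replicate 1 and high_iron replicate 2 lowest. Within the shortest class itself, the median log2 fold change was -0.17 for the 9 core genes, 0.05 for the 6 cap genes and -0.09 over all 2597 genes. The part of length in the differences between core and cap was not tested.

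**Figure D4:**
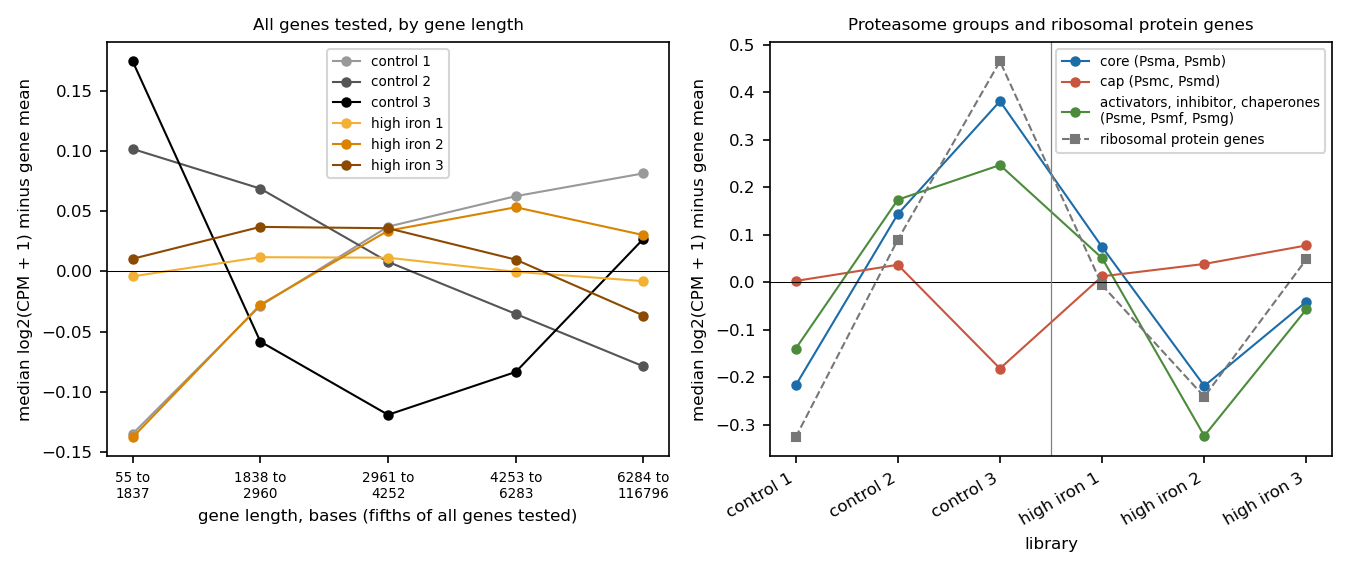
Left, median of log2(CPM + 1) minus the gene's mean for all genes tested in 5 classes of gene length, with a line per library; right, the same median for core, cap, activator and chaperone genes and ribosomal protein genes in each library. Control 3 stands highest among short genes (0.17) and in the core (0.38), and lowest in the cap (-0.18).

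Other genes of the pathway were read from lists. Of 9 tested partners with other names 0 passed by limma (1 at an unadjusted p under 0.05; edgeR 0, DESeq2 1), and the median log2 fold change was 0.02. Pomp, the chaperone that matures the core, was at 135, 172 and 223 CPM in control_iron and at 161, 136 and 173 CPM in high_iron libraries, in the same library order within controls as the core (-0.15 ± 0.19, SE; adjusted p = 0.76, limma). Zfand5, a zinc-finger protein known to stimulate the proteasome, was at 104, 102 and 84.4 CPM against 158, 129 and 144 CPM, with no overlap (0.57 ± 0.14, SE; adjusted p = 0.11, limma; 0.014, DESeq2; 0.077 to 0.40 with 1 library left out of limma). Sem1, a small cap subunit listed as Shfm1, was at 125, 168 and 282 CPM against 143, 108 and 130.0 CPM, with overlap (-0.52 ± 0.26, SE; adjusted p = 0.46, limma).

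Of 9 tested genes around NFE2L1, 8 had a positive log2 fold change (median 0.17) and 2 an unadjusted p under 0.05 (limma). At the adjusted threshold edgeR called 0, DESeq2 1 and limma 1, which was higher in high_iron. That gene was Mafg, a small MAF partner of both factors, from 157 ± 6.40 to 239 ± 6.58 CPM (SD, n = 3; log2 fold change 0.60, adjusted p = 0.045, limma; 0.071 by edgeR, 3.6e-04 by DESeq2), and it missed the threshold without each of the 6 libraries in turn (adjusted p = 0.055 to 0.26, limma). Nfe2l1 was at 213 ± 19.6 and 223 ± 56.3 CPM (log2 fold change 0.04 ± 0.19, SE; adjusted p = 0.95, limma), and Nfe2l2 at 228 ± 7.84 and 257 ± 13.4 CPM (0.17 ± 0.12, adjusted p = 0.58, limma). Ngly1, which removes sugars from NFE2L1 on its way to activation, had a log2 fold change of 0.50 ± 0.18 (SE; adjusted p = 0.32, limma). Of 14 genes of ubiquitin and shuttles 0 passed by limma (3 at an unadjusted p under 0.05; edgeR 0, DESeq2 1). Sqstm1, the cargo receptor p62 and a target gene of NFE2L2, was at 166, 248 and 223 CPM in control_iron and at 387, 343 and 399 CPM in high_iron libraries, with no overlap, and just missed the threshold (0.84 ± 0.16, SE; adjusted p = 0.0503, limma; 0.0498 to 0.25 with 1 library left out). Nploc4, an adaptor of the unfoldase p97, had a log2 fold change of 0.57 ± 0.20 (SE; adjusted p = 0.30, limma).

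Immunoproteasome genes were not called either. Psmb8, Psmb9 and Psmb10 had log2 fold changes of 0.07 ± 0.15, -0.27 ± 0.22 and -0.19 ± 0.14 (SE; smallest adjusted p = 0.60, limma; 0 at an unadjusted p under 0.05; edgeR and DESeq2 0).

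Target genes of NFE2L2 are given for scale. All 9, on a list chosen for rises already known, Hmox1, Nqo1 and Gclc among them, rose, by a median of 2.16 and at least 1.26 (Pgd) on the log2 scale; G6pdx and Pgd missed the threshold in some fits without 1 library (adjusted p up to 0.077 and 0.064, limma), and the summed macrophage markers, given above, were higher in the same libraries. The 6 members with the antioxidant core in their promoter had log2 fold changes from -0.10 (Psmd9) to 0.26 (Psme4), 3 of them positive. Of the 6 NFE2L2 target genes found in the promoter table, 5 held the core, as did 12.4% of all promoters in it. The list holds known target genes of a factor that binds this core, so this count is a description and no test. The 9 members with the ETS site ran from -0.22 (Psmg3) to 0.26 (Psme4), 7 of them positive. Psmc1, Psmc2, Psmd6, Psmd12 and Psmd13 among them are cap genes. Of all 44 tested members 19 were positive, and of the 20 cap genes 17. A relation of either site to direction was not tested.

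**Figure D5:**
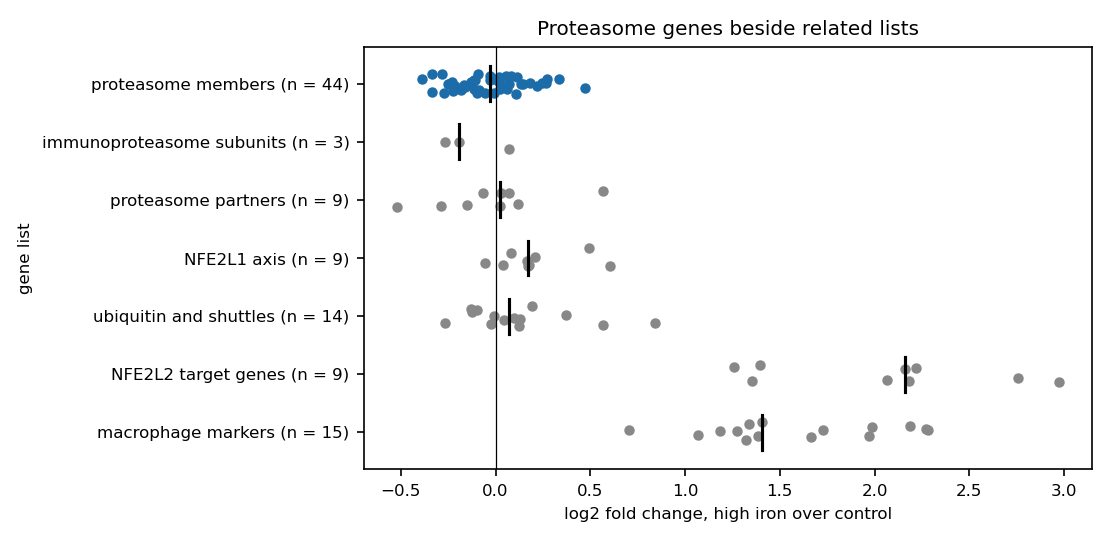
Log2 fold change, high iron over control, of each tested gene (points, with vertical scatter for legibility) in the proteasome and in related lists, with medians as bars. The 44 proteasome genes lie between -0.39 and 0.47. The 9 NFE2L2 target genes, on a list chosen for rises already known, start at 1.26. Sqstm1, also a target gene of NFE2L2, is plotted under ubiquitin and shuttles and lies lower.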

How the data were processed

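Sorted cells were sequenced from a SMARTer low-input preparation that does not mark strand (per the labels' protocols), so sense and antisense reads of overlapping genes are not separated. STAR, HTSeq, edgeR and the build mm10 are named in the submitters' processing notes, without roles or versions. The authors deposited a signal called CPM, reads of a gene relative to a scaled library size, and RPKM values, which equal CPM per kilobase of the deposited length within 8.0e-11. All 114253 CPM values above 0 were whole multiples of 1 read within 0.001 read (100%), so the reads were recovered. Another deposited column is the gene length.

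Genes with at least 1 CPM in at least 3 libraries (12980) were tested with limma 3.58.1 (R 4.3.3) on log2(CPM + 1), group as the single term, intensity trend, two-sided, Benjamini-Hochberg adjustment, threshold 0.05. A count test was not the main one because the deposited unit is normalized; recovered reads went into edgeR 4.0.16 (TMM, quasi-likelihood test) and into DESeq2 1.42.0 as alternatives, with other pseudocounts, filters and scalings, a replicate block, and each library left out. Positions and merged exons come from GENCODE M21 (GRCm38, which is mm10), copies from BLAST+ 2.17.0 (95% identity or more, covering 50% or more of a transcript), promoters from RefSeq (GRCm38). Of 91 listed genes 89 were found, 5 by Ensembl identifier. The labels give no batch.

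Members, lists and tests were chosen with earlier results of these data known. Named members were those past the threshold, the largest and smallest log2 fold change of each family, the catalytic genes, the 2 highest and 2 lowest levels, all Psme genes, Psmf1 and untested ones; of lists, called genes or the 2 smallest p, and Nfe2l1, Nfe2l2 and Pomp. Others are said to be chosen for their value or stand in a comparison.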

Additional observations from a re-analysis of the deposited data

How the results depend on the processing

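The count of called members was 0 in the 15 other settings, in the core, the cap and the rest alike, with a smallest adjusted p per setting between 0.12 and 0.73. Without control_iron replicate 1, 11 of the 44 tested members had an unadjusted p under 0.05 (limma), against 20.7% of all genes. The count over all genes was 34 with no filter, 424 with DESeq2, 402 with the replicate block and 27 to 183 with 1 library left out, against 133. The median log2 fold change of the cap ran from 0.0023 to 0.17 with 1 library left out, the largest without control_iron replicate 2. That of the core ran from -0.28 to -0.04, and that of activators, inhibitor and chaperones from -0.30 to -0.07. With 1 library left out, values near 0 changed sign in 4 named genes: Psma4 ran from -0.048 to 0.054, Psmb5 from -0.17 to 0.062, Psmb7 from -0.27 to 0.067 and Psmc5 from -0.049 to 0.034; the cause was not tested. The other 278 values of named members kept direction and side of the threshold. Scaling by plain totals or DESeq2 size factors left 15 of 15 core genes negative and 17 of 20 cap genes positive. Scaling shifts all genes of a library nearly alike, and here by little (core median -0.137 and -0.131). The kept signs are therefore no test of the lean. The replicate block called 0 members. Deviations of same-numbered samples correlated with r = 0.13, 0.32 and 0.06, and those of different numbers with r from -0.39 to 0.20. Of the control samples, 2 of 3 were closest to their own number. These values do not settle whether the numbers mark pairs, and the main test did not treat them as pairs. Of the members 8 have a near-identical copy elsewhere in the genome. Other genes overlap at least 10% of the exons of 4, which are Psmb5, Psmb7, Psmd13 and, at 25.5%, Psmd9.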
